A study of Rattus norvegicus with 8 samples.

Results

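The genes described here carry organic cations, carnitine and related solutes across cell membranes, together with 4 members of the Slc22 family that have no settled transport role in kidney. They are Slc22a2, Slc22a3, Slc22a4, Slc22a5, Slc22a15, Slc22a17, Slc22a18, Slc22a23 and the efflux transporter Slc47a1. These 9 genes were chosen by name, and 11 probes carried a RefSeq accession of one of them, against 11827 named genes and 23425 probes that were tested in all. All 11 probes were usable, which meant that 4 or more of the 8 arrays had them well above background. Each gene was led by its probe of highest mean signal.

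Messenger RNA was measured in slices of kidney cortex from 4 male and 4 female adult rats of the RCCHanTMWIST strain, a Han Wistar stock, each rat on 1 array with a single dye. Neither sex was treated, no genotype was altered, and the age was given only as adult. The comparison asks which transporter messages differ between the sexes. All arrays lay on 1 slide, on which each of the 4 columns held 1 male and 1 female.

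Cells of the proximal tubule take up organic cations such as metformin and creatinine from the blood chiefly through carriers such as OCT2, encoded by Slc22a2, driven by the negative membrane potential. They release the cations into the urine through the proton antiporter MATE1, encoded by Slc47a1. Carnitine, which shuttles fatty acids into mitochondria, is taken back from the filtrate by OCTN2, encoded by Slc22a5, and in rodents OCTN1, encoded by Slc22a4, carries mainly the antioxidant ergothioneine.

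Of the 9 genes, 3 were higher in males at a Benjamini-Hochberg adjusted p below 0.05 in limma: Slc22a5, Slc22a2 and Slc22a23. None was higher in females at this threshold. Over all probes tested, 8.06% passed in either direction, 3.39% with the higher level in males and 4.67% with the higher level in females. At the limma adjusted p, 0 of the 9 genes also differed 2-fold, against 1.89% of all probes (0.798% higher in males, 1.09% higher in females), while 6 of the 9 had an unadjusted p below 0.05, against 25.6% of all probes. The 4 male values lay above the 4 female values for 4 of the 9 genes, Slc22a17 being the fourth, against 7.47% of all probes, and for 0 genes did all females lie above all males, against 11% of all probes. The median log2 fold-change, male minus female throughout, was 0.30 for the 9 genes and -0.04 for all probes.

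Values below are log2 signals relative to the 75th percentile of the array. They are compared only within a probe, because probes differ in how brightly they bind.

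**Figure D1:**
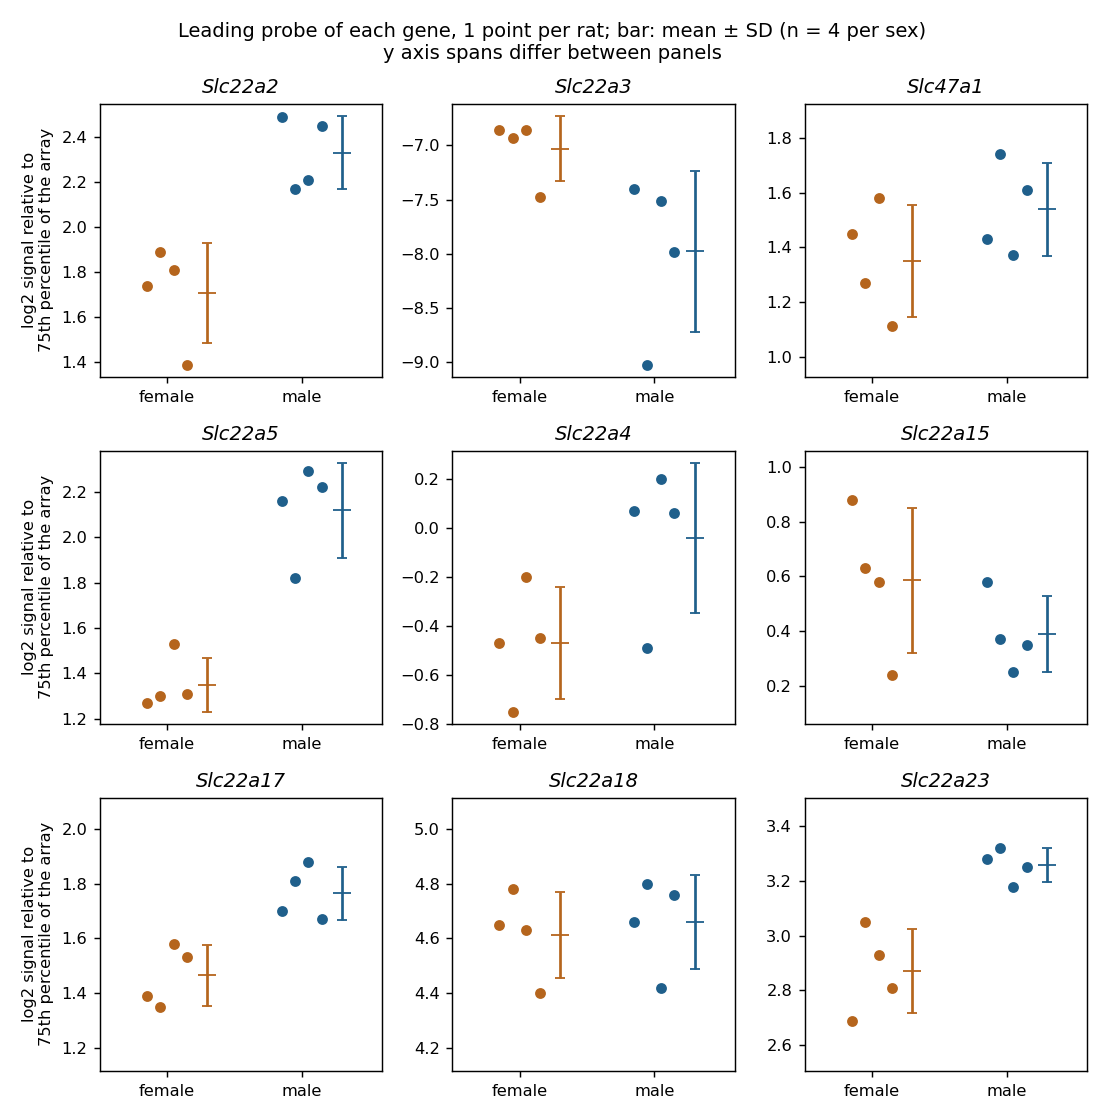
Level of the leading probe of each gene in every rat, as log2 signal relative to the 75th percentile of its array, with the mean and SD of each sex beside the points (n = 4 per sex). The sexes do not overlap for Slc22a2, Slc22a5, Slc22a17 and Slc22a23, and overlap for the other 5 genes.

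Stretches upstream of the annotated start are shown for the 3 genes that passed, as the context for the motif search described further on. They come from the RefSeq annotation of GRCr8 and are written 5′ to 3′ on the strand of the gene. They hold the bases before the start that lie outside the annotated span of the gene itself. Overlap with other annotated genes was not checked. The stretch of Slc22a2 is chr1:50711020-50711269 on the minus strand, that of Slc22a5 is chr10:38536241-38536322 on the minus strand, and that of Slc22a23 is chr17:30749195-30749444 on the plus strand. Capitals mark the motif matches.
Slc22a2: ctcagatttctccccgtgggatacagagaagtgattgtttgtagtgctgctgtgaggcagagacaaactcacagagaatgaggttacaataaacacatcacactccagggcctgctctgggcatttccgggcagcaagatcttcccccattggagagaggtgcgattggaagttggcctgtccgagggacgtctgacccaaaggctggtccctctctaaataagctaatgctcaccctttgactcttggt
Slc22a5: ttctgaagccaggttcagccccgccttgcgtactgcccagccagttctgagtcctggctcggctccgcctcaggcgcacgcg
Slc22a23: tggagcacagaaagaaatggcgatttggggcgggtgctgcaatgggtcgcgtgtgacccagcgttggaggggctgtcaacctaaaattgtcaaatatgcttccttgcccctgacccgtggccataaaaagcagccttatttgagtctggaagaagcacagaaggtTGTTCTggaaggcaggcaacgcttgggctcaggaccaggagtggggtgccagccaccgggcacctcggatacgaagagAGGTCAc

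Slc22a2, which encodes the basolateral cation uptake carrier OCT2, was higher in males. The 4 females had levels of 1.74, 1.89, 1.81 and 1.39, and the 4 males 2.49, 2.17, 2.21 and 2.45. Every male lay above every female, male 2 being the lowest male and female 4 the lowest female. On the intensity scale before any scaling, the female signals were 18883, 18623, 19470 and 15558, and the male signals 36929, 25632, 29759 and 35112. The means were 1.71 ± 0.22 (SD, n = 4) in females and 2.33 ± 0.16 in males, a log2 fold-change of 0.62 (SE 0.129, 95% confidence interval 0.33 to 0.92), which is 1.54-fold (1.26 to 1.89). The adjusted p in limma was 0.0248. An exact permutation test over the 70 assignments of the 8 arrays gave a two-sided p of 0.0286, the smallest this design allows. The size exceeded that of 93.1% of all probes. The adjusted p of Slc22a2 was above 0.05 without female 1 (0.0556), male 1 (0.0606) or male 4 (0.0644), with log2 fold-changes of 0.64, 0.57 and 0.59.

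Slc22a3, which encodes the extraneuronal monoamine carrier OCT3, lay near the lower end of what the arrays could measure. Its levels were -6.86, -6.93, -6.86 and -7.48 in females and -7.40, -9.02, -7.51 and -7.98 in males. The signals were 52, 42, 48 and 33 in females and 39, 11, 36 and 26 in males, and male 2 was the only array on which the probe was not well above background. The sexes overlapped, since female 4 lay below male 1. The log2 fold-change was -0.95 (SE 0.343, 95% confidence interval -1.73 to -0.16), with an adjusted p of 0.130 in limma and an exact permutation p of 0.0571. Without male 2 the log2 fold-change of Slc22a3 was -0.60, and after normexp background correction it was -0.31.

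Slc47a1 encodes MATE1, the carrier through which cations that entered by OCT2 leave for the urine. Its levels were 1.45, 1.27, 1.58 and 1.11 in females and 1.43, 1.74, 1.37 and 1.61 in males. The sexes overlapped over most of their range, and the lowest male, male 3, lay below 2 of the females. The log2 fold-change was 0.19 (SE 0.126, 95% confidence interval -0.10 to 0.48), that is 1.14-fold, with an adjusted p of 0.394 in limma and an exact permutation p of 0.229. The interval leaves room for a male excess of 0.48 on the log2 scale. The log2 fold-change of Slc47a1 was 0.11 without female 4 and 0.12 without male 2.

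The sex difference of Slc22a2 exceeded that of Slc47a1 by 0.44 on the log2 scale, and that of Slc22a5 exceeded that of Slc22a4 by 0.34. These pairs were chosen after the values were seen, so the differences are given as a description, with no test.

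Slc22a5, which encodes the sodium-dependent carnitine carrier OCTN2, had the largest rise in males among the 9 genes. Levels in the 4 females were 1.27, 1.30, 1.53 and 1.31, and in the 4 males 2.16, 1.82, 2.29 and 2.22. The lowest male, male 2, lay above the highest female, female 3. The female signals were 13582, 12354, 16042 and 14725, and the male signals 29197, 20018, 31277 and 29906. Means of 1.35 ± 0.12 (SD, n = 4) and 2.12 ± 0.21 gave a log2 fold-change of 0.77 (SE 0.115, 95% confidence interval 0.50 to 1.03), or 1.70-fold (1.42 to 2.04). The adjusted p in limma was 0.00723 and the exact permutation p 0.0286. The log2 fold-change was 0.77 in either row of the slide, and the males exceeded the females by 0.51 to 0.92 within the 4 columns. Slc22a5 kept its adjusted p below 0.05 without any single array, the log2 fold-change then ranging from 0.71 to 0.87.

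Slc22a4, which lies in the same gene cluster as Slc22a5 and encodes OCTN1, differed less. Female levels were -0.47, -0.75, -0.20 and -0.45, against 0.07, -0.49, 0.20 and 0.06 in males. Of the males, 3 lay above all females, and male 2 lay below 3 of them. The log2 fold-change was 0.43 (SE 0.171, 95% confidence interval 0.04 to 0.82), or 1.35-fold, with an unadjusted p of 0.0356, an adjusted p of 0.163 in limma and an exact permutation p of 0.114.

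**Figure D2:**
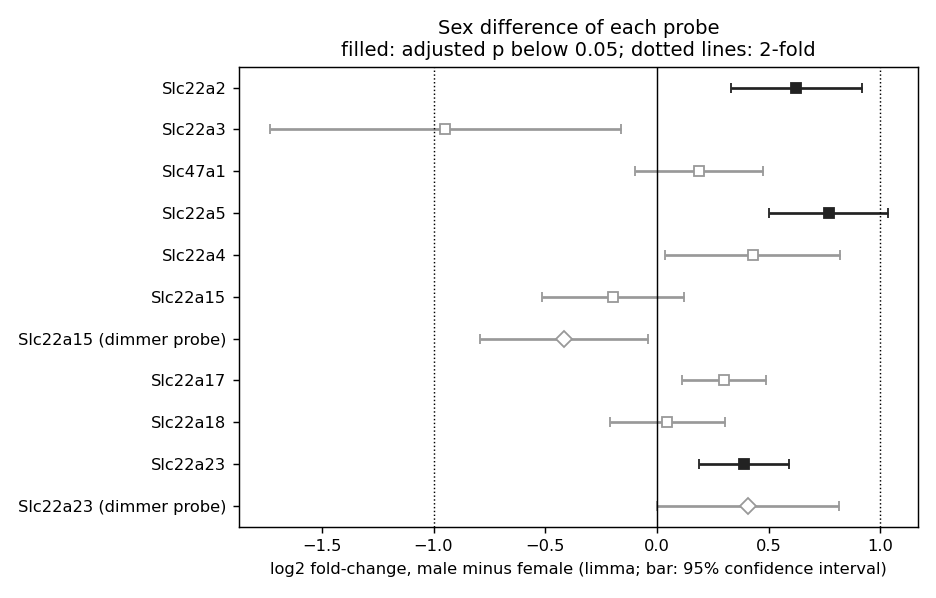
Log2 fold-change (x axis, male minus female) of all 11 probes with its 95% confidence interval from limma, squares for leading probes and diamonds for the dimmer probe of a gene. Filled symbols, those of Slc22a2, Slc22a5 and Slc22a23, have an adjusted p below 0.05, and no filled symbol reaches the dotted 2-fold lines.

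Among the 4 orphan members, 1 passed the test. Slc22a23, a family member without a known substrate, had female levels of 2.69, 3.05, 2.93 and 2.81 and male levels of 3.28, 3.32, 3.18 and 3.25. Every male lay above every female, and the males were close together. The means were 2.87 ± 0.15 (SD, n = 4) and 3.26 ± 0.062, a log2 fold-change of 0.39 (SE 0.0885, 95% confidence interval 0.19 to 0.59), or 1.31-fold (1.14 to 1.51), with an adjusted p of 0.0353 in limma and an exact permutation p of 0.0286. A second, dimmer probe of Slc22a23 gave a log2 fold-change of 0.41 (SE 0.178) and an adjusted p of 0.197, with female levels of -4.56, -3.78, -4.11 and -4.04 and male levels of -3.82, -3.64, -3.97 and -3.44. The adjusted p of the leading probe was above 0.05 without any one array other than female 2: 0.0711, 0.0684 and 0.0769 without female 1, 3 and 4, and 0.0759, 0.0899, 0.0560 and 0.0771 without male 1, 2, 3 and 4. It was also above 0.05 with the slide row (0.0506) or the slide column (0.101) as a block as well as without the filter on dim probes (0.0649) and with the mean over both probes (0.0931).

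Slc22a17 encodes a receptor for the iron-binding protein lipocalin-2. Its levels were 1.39, 1.35, 1.58 and 1.53 in females and 1.70, 1.81, 1.88 and 1.67 in males. The sexes did not overlap, and the males exceeded the females by 0.28 to 0.32 in each of the 4 columns of the slide. The log2 fold-change was 0.30 (SE 0.0829, 95% confidence interval 0.11 to 0.49), or 1.23-fold, with an exact permutation p of 0.0286, an unadjusted p of 0.00631 and an adjusted p of 0.0641 in limma. With an intensity trend and a robust prior the adjusted p of Slc22a17 was 0.0324, and every other refit left it above 0.05. It was 0.078 to 0.15 when 1 array was left out and 0.102 with the replicate number as a block.

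Slc22a15, one of the orphan carriers, had female levels of 0.88, 0.63, 0.58 and 0.24 and male levels of 0.58, 0.37, 0.25 and 0.35. The whole male range lay inside that of the females. The log2 fold-change was -0.20 (SE 0.138, 95% confidence interval -0.51 to 0.12), with an adjusted p of 0.419 in limma and an exact permutation p of 0.314. It was -0.10 without female 1 and -0.31 without female 4. The dimmer probe of Slc22a15 had female levels of -3.48, -3.82, -3.93 and -4.22 and male levels of -4.12, -4.31, -4.54 and -4.14, with a log2 fold-change of -0.42 and an adjusted p of 0.158 in limma.

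Slc22a18 lies in an imprinted region next to Cdkn1c and Phlda2. Female levels were 4.65, 4.78, 4.63 and 4.40, and male levels 4.66, 4.80, 4.42 and 4.76. The sexes spanned almost the same range, with a log2 fold-change of 0.05 (SE 0.113, 95% confidence interval -0.21 to 0.31), an adjusted p of 0.838 in limma and an exact permutation p of 0.543. The sign turned, to -0.02, without female 4. Of these 4 orphan genes, Slc22a18 thus had the smallest difference.

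The lowest male was the same rat, male 2, for Slc22a2, Slc22a3, Slc22a4 and Slc22a5. Male 3 was the lowest for Slc47a1, Slc22a15, Slc22a18 and Slc22a23, and male 4 for Slc22a17. Among females, female 4 was the lowest for Slc22a2, Slc22a3, Slc22a15, Slc22a18 and Slc47a1. No rat was the lowest of its sex for all 9 genes.

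Position on the slide was compared too, although whether the arrays of a column or row were processed together is not stated. All 4 columns had the male above the female for Slc22a2, Slc22a5, Slc22a17 and Slc22a23, and none did for Slc22a3. For those 4 genes every male lay above every female, so the sign in each column was fixed and adds no support. Slc22a2 differed by 0.87 in the first row and 0.37 in the second, while Slc22a23 differed by 0.40 and 0.38. Slc22a17 differed by 0.13 in the first row and 0.47 in the second.

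**Figure D3:**
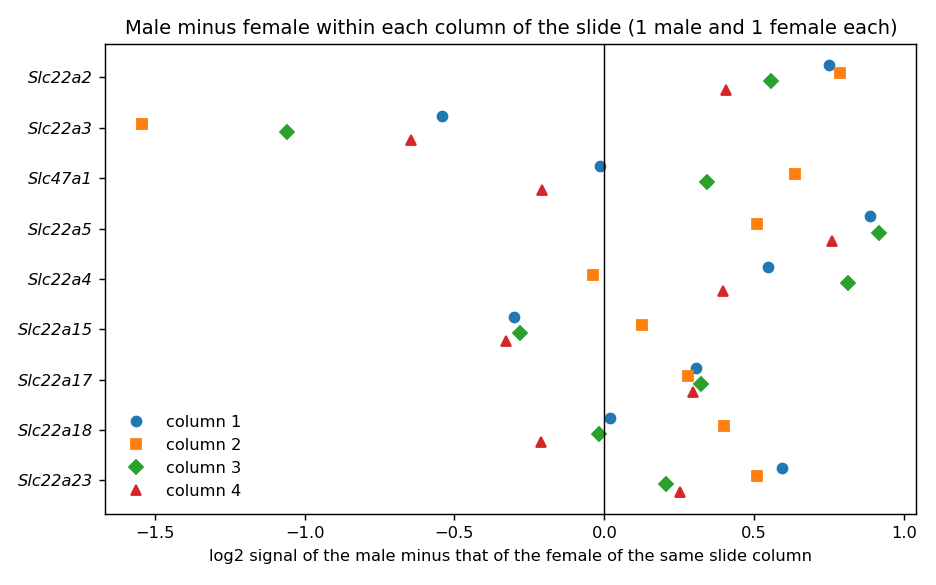
Difference in log2 signal between the male and the female of each of the 4 slide columns (x axis) for the leading probe of each gene. All 4 columns are above 0 for Slc22a2, Slc22a5, Slc22a17 and Slc22a23 and below 0 for Slc22a3, while Slc47a1 and Slc22a18 have 2 columns on either side. For Slc22a2, Slc22a5, Slc22a17 and Slc22a23 the sign follows from the sexes not overlapping.

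**Figure D4:**
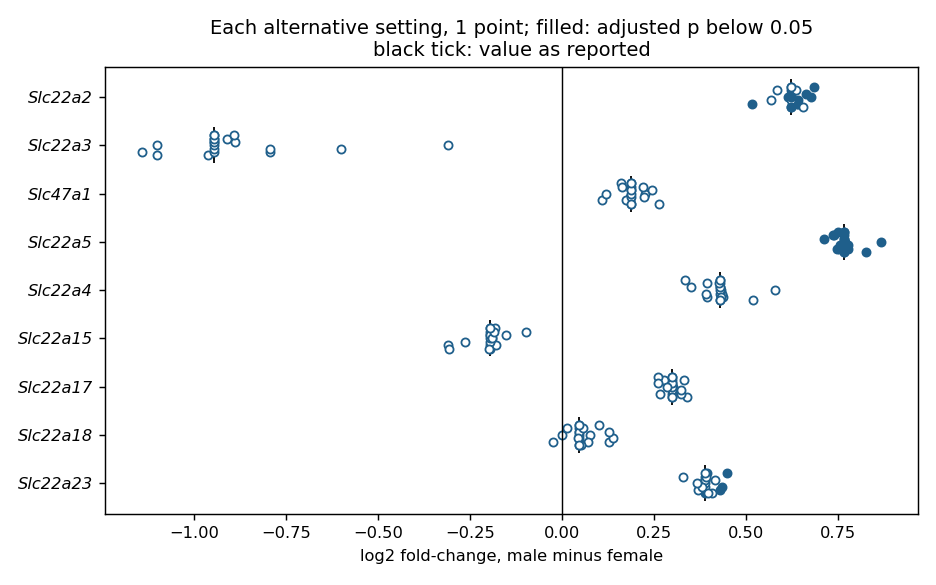
Log2 fold-change (x axis, male minus female) of each gene under every alternative fitted, 1 point each, filled where the adjusted p is below 0.05, with a black tick at the reported value. The points of Slc22a5 are all filled and lie between 0.71 and 0.87, those of Slc22a3 spread from -1.14 to -0.31, and those of Slc22a18 fall on both sides of 0.

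Markers of the tubule segments were compared between the sexes, since these are whole slices in which fewer cells of a type and less RNA per cell cannot be told apart. All 6 markers of the first proximal tubule segments were measured, and 1 of them, the endocytic receptor gene Cubn, passed and was lower in males. Of those that did not pass, Slc5a12 lay at 0.25 on the log2 scale, male minus female (limma adjusted p 0.104), with every male above every female. Slc4a4 lay at 0.18 (limma adjusted p 0.306). In the other direction, Slc5a2 lay at -0.13 (limma adjusted p 0.225), with every female above every male. Slc34a1 lay at -0.08 and Lrp2 at -0.01 (limma adjusted p 0.550 and 0.974). The summed linear level of the 6, relative to the 75th percentile, was 125 to 136 in females and 119 to 124 in males, a sum to which the brightest probes contribute most. None of the 4 markers of the last proximal segment passed, with sums of 9.65 to 16.1 in females and 12.2 to 13.8 in males. The sums were also lower in males for the 3 measured markers of the thick ascending limb, 57.7 to 65.3 against 47.5 to 55.3, of which Cldn16 passed, and for the 5 of the glomerulus, 12.2 to 13.0 against 10.5 to 11.01, of which Podxl passed. No marker of collecting duct, distal convoluted tubule, endothelium, smooth muscle, blood and immune cells, adrenal gland or adipose tissue passed. The adrenal markers Star and Cyp11b1 were not usable on these arrays. The part of cell composition in the transporter differences was not tested.

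Genes that make or use carnitine were measured next to its carrier Slc22a5. Of the 11 tested among 14 listed, 2 were higher in males, 1 was higher in females and 8 did not pass, with a median log2 fold-change of 0.11. Cpt1a, which couples fatty acids to carnitine at the mitochondrial outer membrane, was higher in males by 0.54 (SE 0.136, adjusted p 0.0476 in limma). Shmt2, a mitochondrial serine hydroxymethyltransferase, was higher in males by 0.43 (SE 0.0734, adjusted p 0.0122 in limma). Whether Shmt2 has a part in carnitine synthesis was not tested. Crot, the peroxisomal carnitine octanoyltransferase, was higher in females (log2 fold-change -0.53, SE 0.125, adjusted p 0.0392 in limma). Bbox1, which catalyses the last step of carnitine synthesis, had a log2 fold-change of -0.91 and an adjusted p of 0.132 in limma, at a dim probe with a mean signal of 111. Calls of Cpt1a and Crot were lost in 12 and 11 of 22 alternatives, among them 7 of the 8 that left out 1 array for each, and that of Shmt2 in 2.

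Among other carriers of cations and choline, 10 of 17 listed genes were tested, 1 was higher in males and 1 in females, with a median log2 fold-change of -0.02. Slc6a4, the serotonin transporter gene, was higher in males by 0.99 (SE 0.120, adjusted p 0.00285 in limma), and by 0.50 after normexp correction. Its probe was dim, with a mean signal of 129. The choline transporter-like gene Slc44a4 was higher in females (-0.46, SE 0.116, adjusted p 0.0476 in limma).

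Enzymes that act on the substrates of these carriers were listed together with the creatine transporter gene Slc6a8. Of the 13 listed genes 12 were tested, with 2 higher in males, 1 higher in females and a median of 0.02. Fmo1, a flavin monooxygenase that oxidizes amines, was higher in males by 0.49 (SE 0.0855, adjusted p 0.0133 in limma), and Gamt, which makes creatine, by 0.38 (SE 0.0944, adjusted p 0.0469). Nnmt, which methylates nicotinamide to a cation handled by OCT2 and MATE1, was higher in females (-0.45, SE 0.0955, adjusted p 0.0275 in limma). The Nnmt probe was dim, with a mean signal of 132. Lists of partners of the orphan genes were small. Of 6 lipocalin and iron uptake genes, Slc11a2 was higher in males by 0.51 (adjusted p 0.0387 in limma), while its other probe had -0.03, and Cubn was higher in females (-0.59, adjusted p 0.00452). Lcn2, the ligand of the Slc22a17 receptor, had a log2 fold-change of 0.16 and an adjusted p of 0.415.

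Regulators and scaffolds of these carriers were 19 genes, all tested, with a median of 0.02 and 1 gene past both the adjusted p and 2-fold. This was Esr1, the estrogen receptor alpha gene, which was higher in males by 1.67 (SE 0.108, adjusted p 0.000238 in limma), or 0.71 after normexp correction. The Esr1 probe was dim, with a mean signal of 78.7 and a mean female level of -7.36, so the size of the difference is uncertain. Ppara, whose product drives Slc22a5 in rodents, had a log2 fold-change of -0.01 and an adjusted p of 0.982, and the scaffold gene Pdzk1 0.04 and 0.762. Calls of Slc44a4, Gamt, Slc11a2 and Nnmt were lost in 11 or 12 of 22 alternatives. Among the 8 fits that left out 1 array, Slc44a4 still passed without female 4, Gamt without female 1, Slc11a2 without male 1 or male 4, and Nnmt without female 4 or male 4, whereas Slc6a4, Fmo1, Cubn and Esr1 passed in every one.

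In the organic anion branch of the same family, 9 of 12 listed genes were tested, and 4 passed with the higher level in males and 3 with the higher level in females. Of these, 5 also differed at least 2-fold, a size that none of the 9 cation, carnitine and orphan genes reached with an adjusted p below 0.05. The largest at the leading probes were Slc22a22 at 6.51, Slc22a7 at -5.12, Slc22a13 at -3.45 and Slc22a24 at -2.34, while a second, dimmer probe of Slc22a13 had -5.71. The difference between the branches was not tested, since both were chosen with results known.

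**Figure D5:**
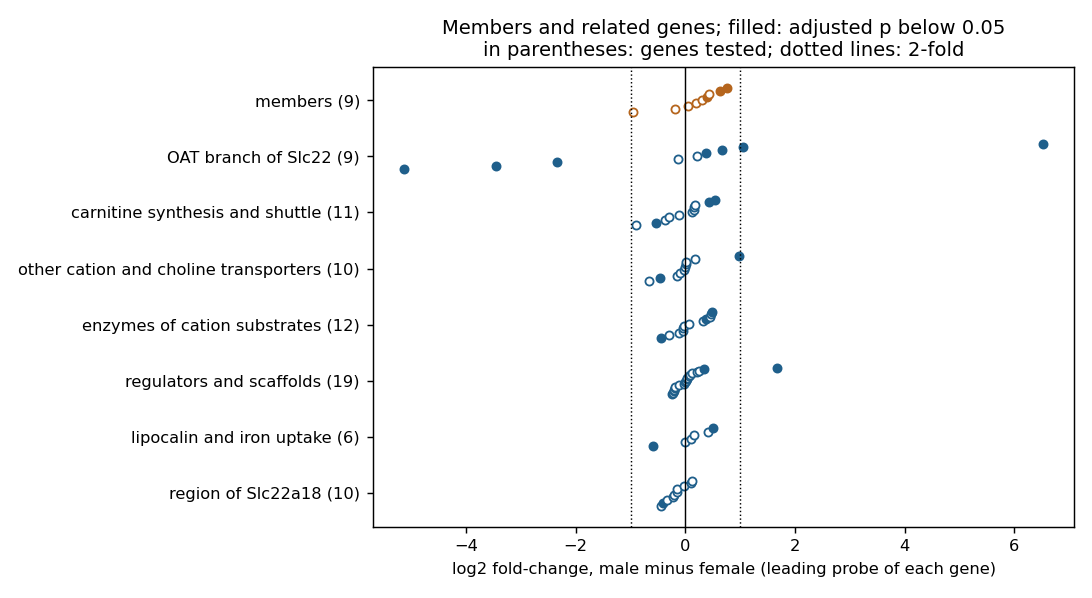
Log2 fold-change (x axis, male minus female) of the leading probe of the 9 members, drawn in orange, and of related gene lists, drawn in blue, 1 point per gene and filled where the adjusted p is below 0.05. The members lie between -0.95 and 0.77, inside the dotted 2-fold lines, while the organic anion branch reaches from -5.12 to 6.51.

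Genomic neighbours were taken as the 3 annotated genes on either side of each member in GRCr8. Of 48 different neighbours, 21 had a tested probe and 2 passed, where 8.06% of all probes passed in either direction. Efs, next to Slc22a17, was higher in females (-0.48, SE 0.119, adjusted p 0.0458 in limma), as was Cdkn1c, next to Slc22a18 (-0.41, SE 0.0629, adjusted p 0.00796), with -0.54 at its second probe. Cdkn1c was the only one of 10 listed genes of the Slc22a18 region that passed, and the median of that list was -0.18. Irf1, near Slc22a5, had 0.22 and an adjusted p of 0.234.

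The pattern over the 8 arrays was compared with that of 11805 genes of other families, as the root mean square difference of centred log2 levels. Nearest to Slc22a5 were Tex36 at 0.123, Gria3 at 0.124 and Acsl3, a long-chain acyl-CoA synthetase gene, at 0.124, against a median over all genes of 0.457. Nearest to Slc22a2 were Sec16b at 0.120, Adtrp at 0.133 and again Tex36 at 0.137, against a median of 0.401. The log2 fold-changes of these 5 genes were 0.78 for Tex36, 0.65 for Gria3, 0.75 for Acsl3, 0.79 for Sec16b and 0.75 for Adtrp. The distance includes the sex difference, so similar fold-changes follow from how the genes were chosen, as do distances below the median.

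Promoter windows of 250 bases before and 50 after the annotated start were listed for 8 of the 9 members. On both strands, TGTTCT, a half-site of steroid hormone receptors, was found in 1 of the 8, against 20.7% of 33469 promoters, and AGGTCA, a half-site of nuclear receptors, in 1, against 16.2%. Both lie in the Slc22a23 stretch printed above, with their first bases at -85 and -7 from the start. The full palindromic site, AGAACA followed after the spacer NNN by TGTTCT (0.0149% of promoters), the BCL6 motifs TTCCTAGAA (0.376%) and TTCCTCGAA (0.0657%) and the STAT5 core TTCNNNGAA (8.87%), which takes in both BCL6 motifs, were found in none of the 8. The window of Slc22a5 was 73.7% G and C, above that of 95.7% of promoters, while that of Slc22a2 was 52.7% G and C.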

How the data were processed

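Total RNA of 1 cortical kidney slice per rat was labelled with Cy3 and hybridized to an Agilent rat array. For each array the authors deposited spot intensities from Feature Extraction 10.7.3.1, background-subtracted and not normalized between arrays, along with log2 values of the same distribution on each array, as quantile normalization gives. The steps behind the deposited log2 values are not given in the sources used here, and the submitters' processing notes name limma 3.8.2. Probes were named by RefSeq accession (17514 of 30367).

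Outlier spots were left out, log2 intensity minus the 75th percentile of the array was averaged per probe, and the 23425 probes that 4 or more of the 8 arrays had well above background were fitted with limma 3.58.1 (R 4.3.3, with version 1.17.8 of the data.table package) without covariates. Benjamini-Hochberg adjustment covered all of them. Two-sided exact permutation tests used the 70 assignments of the arrays. Motifs and figures were made with Python 3.11.15 and matplotlib 3.10.9. Simulated data with known changes were used to test the fit. Each array had 73.8% to 79.1% of its probes well above background and none saturated, and 4 arrays per sex limit the precision.

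The members and lists were chosen with earlier results of these data known. Named were every member probe, at most 4 genes past the adjusted p in each list, and the 3 genes nearest in pattern to each of 2 members. These 2 had the largest absolute log2 fold-changes among the members past the adjusted p. Related genes and neighbours that were chosen after their values were seen were named too. Some genes are not reported here. Alternatives were quantile normalization, the authors' log2 values, normexp correction with an offset of 50 on the median signal because the files hold no mean signal, no filter or a filter on all 8 arrays, outlier spots kept, array weights, a robust prior with an intensity trend, a block for the replicate number, the slide row or the slide column, each array left out, an unmoderated linear model, the exact test and the mean of all probes of a gene.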

Additional observations from a re-analysis of the deposited data

Results flagged for a closer look

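Among 52 sets of 4 values, made of each sex for the members and the named genes, 6 held 1 rat far from the other 3 by Dixon's test at the 95% level, where chance gives about 1 in 20, that is 2.6. Female 4 had a Slc22a3 level of -7.48, against -6.93 to -6.86 in the other females, at a dim probe. Female 3 had a Slc22a5 level of 1.53, against 1.27 to 1.31, and still lay below every male. Among related genes, female 1 had a Slc11a2 level of 1.49 against 1.54 to 1.55, and male 3 a Slc22a22 level of 0.48 against 1.21 to 1.32. Male 2 had a Slc22a7 level of -4.60 against -3.89 to -3.80, and male 3 a Slc6a4 level of -4.97 against -5.23 to -5.19.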

How the results depend on the processing

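The 3 members past the adjusted p became 1, Slc22a5, with the replicate number as a block and in an unmoderated linear model, and 1 to 3 when 1 array was left out, with 1 without female 1, male 1 or male 4. With an intensity trend and a robust prior there were 4. The count past 2-fold was 0 under all 21 alternatives that gave one. The 20 related genes past the adjusted p became 12 without a filter on dim probes, 11 with the replicate block, 12 with slide column as a block and 12 to 16 when 1 array was left out. Same-numbered males and females deviated with correlations of -0.00794 to 0.125, and numbers 1 and 4 matched their own number best. These values cannot settle whether the replicate numbers pair the rats. The replicate block lowered the count over all probes from 1889 to 1030. The sign was kept by 8 of the 9 members under every alternative, while Slc22a18 ranged from -0.0246 (without female 4) to 0.128 when 1 array was left out. Slc22a3 could not be tested where all 8 arrays had to be above background. Normexp correction gave 298 calls with 2-fold over all probes, against 443. In no case was the cause tested. Signal over background limits Slc22a3 most, with 11 to 52 units of signal.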
